A study of Mus musculus with 8 samples.

Results

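Neural ectoderm is the part of the early embryo that gives rise to the brain and spinal cord. Its genes were followed here in mouse embryonic stem cells (ESCs) with and without Dax1, a nuclear receptor gene also named Nr0b1. The set holds 9 genes, chosen by symbol and matched to the Ensembl identifiers of the count tables: the transcription factors Sox1, Sox3, Sox11, Pax6, Pax3 and Zic1 and the cytoskeletal genes Nes, Map2 and Tubb3. All 9 were found among the 52550 genes listed, and 8 had enough counts to be tested. Messenger RNA was sequenced from 4 groups with 2 libraries each. Control ESCs in 2i/LIF grew in N2B27 medium with 1 µM PD0325901 (a MEK inhibitor), 3 µM CHIR99021 (a GSK3 inhibitor) and 10 ng/ml of the cytokine LIF. Control ESCs in LIF/serum grew in DMEM with 15% fetal bovine serum and 10 ng/ml LIF. Dax1KO ESCs, in which Dax1 was disrupted by CRISPR/Cas9 delivered with a lentivirus, were grown in each of the same media. All libraries are labelled as passage 3, and all cells grew on gelatin. The knockout was made in 2i/LIF and the cells were then transferred to LIF/serum. The functional experiments of the study used 1 knockout colony, and the labels do not say which colony was sequenced, so the effect of the knockout and that of a single clone cannot be told apart. Nothing in the labels says that the 2 libraries of a group came from separate cultures, so the tests measure the spread between these libraries, which may be technical.

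When pluripotent cells take the neural path, factors of the SoxB1 family (Sox1, Sox2, Sox3) hold the neural progenitor state, and Sox1 is among the earliest genes that set neural ectoderm apart from pluripotent cells, which already carry Sox2. Pax6 marks the anterior neural plate and later the cortex and eye, Pax3 the dorsal neural tube and neural crest, and Zic1 the dorsal neural plate. Sox11, a SoxC factor, follows as progenitors become neurons. Nes encodes the intermediate filament nestin of neural progenitors, Map2 a protein that binds dendritic microtubules, and Tubb3 the neuronal tubulin beta III. ESCs held in 2i/LIF are commonly described as a naive ground state, whereas LIF/serum cultures are a mixture that includes cells inclined to differentiate.

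The libraries held 35911384 to 37286251 counts each. Low values piled up at multiples of about 2.64 counts, so 1 sequenced fragment may stand for more than 1 count, and values of up to 8 counts in a library were taken as the floor of detection. Dax1 itself had 456 and 300 counts in control ESCs in 2i/LIF, 0 and 0 in Dax1KO ESCs in 2i/LIF, 5095 and 4689 in control ESCs in LIF/serum and 14 and 6 in Dax1KO ESCs in LIF/serum, so each library carried the genotype of its label. All 8 listed ESC markers (Pou5f1, Nanog, Sox2, Klf4, Zfp42, Esrrb, Tdgf1, Dppa5a) were detected, and their summed level lay between 196829 and 246885 normalized counts in every library. Since each library pools many cells, fewer cells of a type and less RNA per cell cannot be told apart.

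In LIF/serum, Pax6 and Sox11 fell in Dax1KO ESCs and none of the 8 genes tested rose. Pax6 was 4.93-fold lower and Sox11 1.71-fold lower. Genes were called changed by the quasi-likelihood test of edgeR where the Benjamini-Hochberg adjusted P over all 20749 genes tested did not exceed 0.05 and the change was 1.2-fold or more. By this rule 2 of 8 tested neural ectoderm genes changed, where 14.7% of all genes tested were called (8.87% higher and 5.78% lower in Dax1KO ESCs). The libraries of the genotypes did not overlap in 5 of the 8 genes (57.5% of all genes tested), with Dax1KO below control in all 5 (27.2% of all genes tested) and above it in 0 (30.3%). The median log2 fold change was -0.33 over the 8 genes and 0.01 over all genes tested. In 2i/LIF 0 of 8 were called, where 3.16% of all genes were (1.51% higher and 1.65% lower). An unadjusted edgeR P under 0.05 was reached by 3 of 8 in 2i/LIF and by 3 of 8 in LIF/serum. DESeq2 called 1 of the 8 there, Tubb3. The libraries did not overlap in 4 of the 8 (51.8% of all genes tested), with Dax1KO above control in 1 (25.0%) and below it in 3 (26.8%). The median log2 fold change in 2i/LIF was -0.04 over the 8 genes and -0.01 over all genes tested.

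**Figure D1:**
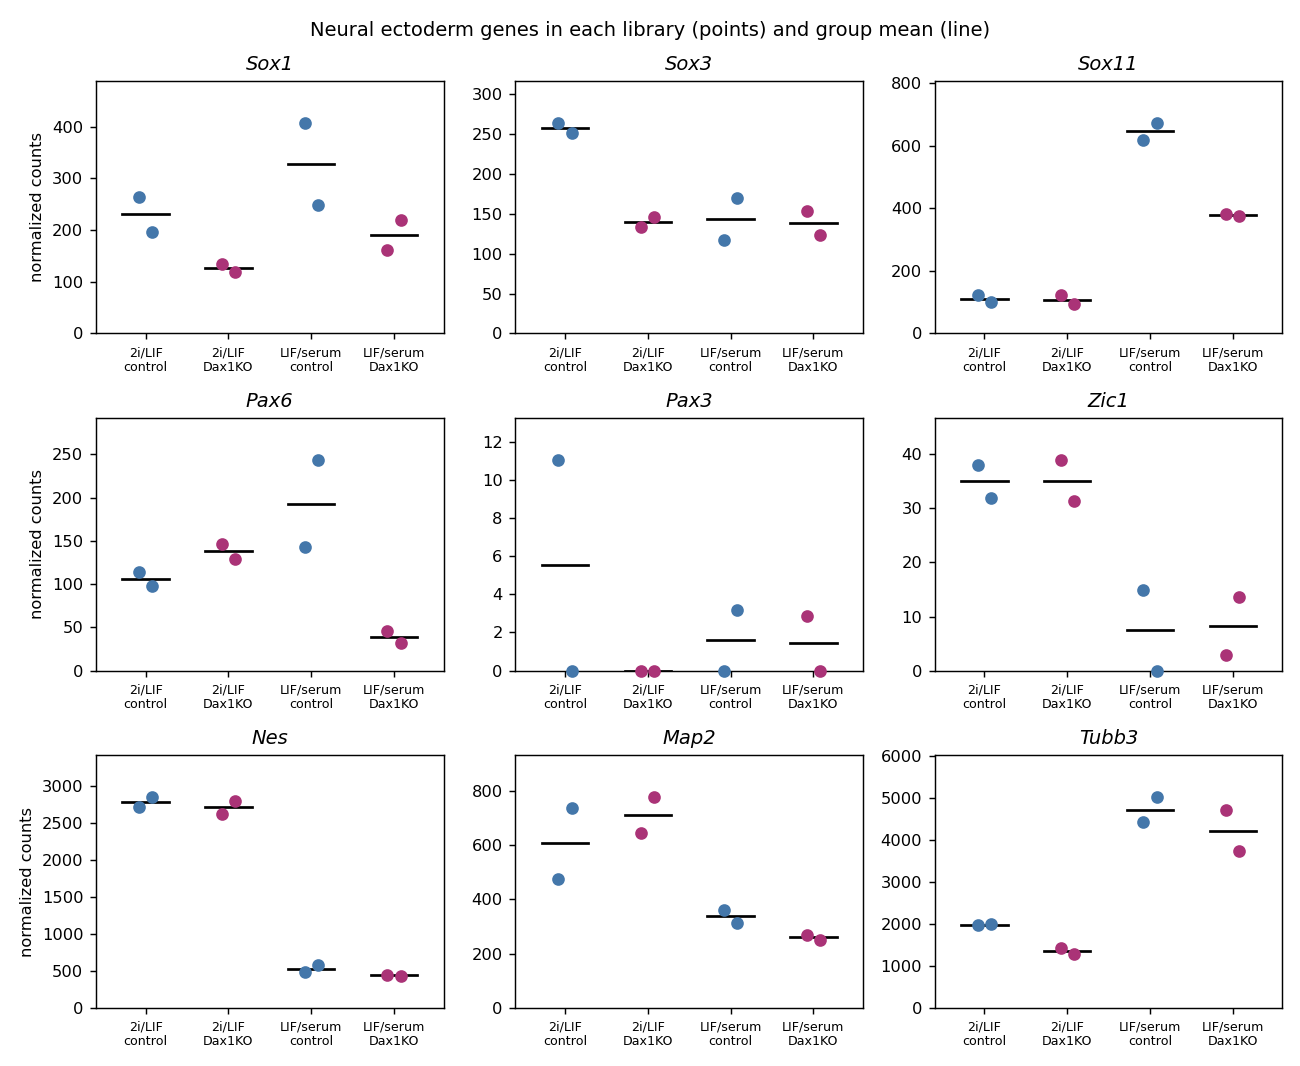
Normalized counts (y axis, linear, each panel with its own scale starting at 0) of the 9 neural ectoderm genes in the 8 libraries (points) by medium and genotype (x axis), with the mean of 2 libraries as a line. Pax6 and Sox11 in LIF/serum Dax1KO ESCs lie below their LIF/serum controls, Nes and Map2 are higher in 2i/LIF, Sox11 and Tubb3 are higher in LIF/serum, and Pax3 does not exceed 12 normalized counts in any library.

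Pax6 (ENSMUSG00000027168.21, chr2:105668900-105697364, plus strand, GRCm38) encodes a paired-domain and homeodomain factor. Counts scaled to a common library size, called normalized counts here, were 143 and 243 in the LIF/serum control libraries and 45.9 and 32.2 in the LIF/serum Dax1KO libraries. In 2i/LIF they were 114 and 98.0 in control and 147 and 129 in Dax1KO ESCs. The LIF/serum Dax1KO libraries were the lowest of all 8, and in 2i/LIF both Dax1KO libraries lay above both controls. In LIF/serum the means were 193 ± 70.8 and 39.0 ± 9.72 (SD, n = 2 libraries), and the log2 fold change was -2.30 (standard error 0.34, 95% interval -3.08 to -1.53, edgeR adjusted P = 0.00618). Without the second LIF/serum Dax1KO library the log2 fold change was -2.07 and the adjusted P 0.0508. In 2i/LIF the means were 106 ± 11.5 and 138 ± 12.6 (SD, n = 2), a log2 fold change of 0.38 (95% interval -0.35 to 1.10, edgeR adjusted P = 0.618). An antisense gene, Pax6os1, overlaps the Pax6 locus without sharing an exon and was listed at 0 in every library.

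Sox11 (ENSMUSG00000063632.6, chr12:27334264-27342574, minus strand), a gene of 1 exon, had 619 and 672 normalized counts in the LIF/serum control libraries and 381 and 376 in the LIF/serum Dax1KO libraries. In 2i/LIF it had 123 and 99.0 in control and 122 and 94.8 in Dax1KO ESCs. The LIF/serum libraries of each genotype sat close together and apart from the other genotype, whereas the 2i/LIF libraries of both genotypes overlapped. The LIF/serum means were 646 ± 37.4 and 379 ± 3.09 (SD, n = 2), and the log2 fold change was -0.77 (standard error 0.20, 95% interval -1.22 to -0.32, edgeR adjusted P = 0.0370). The estimate lay between -0.83 and -0.72 when any library was left out. The call was lost without any 1 of the 6 libraries other than the 2i/LIF controls, with adjusted P values between 0.0535 and 0.161. In 2i/LIF the log2 fold change was -0.04 (95% interval -0.52 to 0.44).

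The sequence just upstream of these 2 genes is shown because they were the ones called in the knockout. The windows are the 250 bases before the annotated start in RefSeq (GRCm38.p6) and overlap no annotated exon, with motif matches in capitals. The RefSeq table held 7 of the 9 genes, all but Sox3 and Pax3. Each window was searched on both strands for the cyclic AMP response element TGACGTCA, the CCAAT box CCAAT, the GC box GGGCGG, the TATA box TATAAA, the octamer ATGCAAAT and the TCF/LEF motif CTTTGAT.
Pax6, chr2:105668646-105668895, plus strand: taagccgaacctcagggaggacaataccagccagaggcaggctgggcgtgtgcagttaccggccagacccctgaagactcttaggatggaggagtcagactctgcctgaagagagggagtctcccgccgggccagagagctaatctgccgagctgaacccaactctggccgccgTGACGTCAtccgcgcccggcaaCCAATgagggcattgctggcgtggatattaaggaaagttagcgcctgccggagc
Sox11, chr12:27342719-27342968, minus strand: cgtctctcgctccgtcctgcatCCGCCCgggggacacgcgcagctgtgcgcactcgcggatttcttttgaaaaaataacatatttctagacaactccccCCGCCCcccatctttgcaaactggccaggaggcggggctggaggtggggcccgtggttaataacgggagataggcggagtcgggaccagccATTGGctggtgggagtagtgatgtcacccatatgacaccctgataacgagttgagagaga
The Pax6 window held a cyclic AMP response element whose first base lay at -76 from the start and a CCAAT box at -54. Of 32851 windows of the same length in the RefSeq table, 1.55% held TGACGTCA and 33.8% held CCAAT or its reverse complement. The Sox11 window held reverse-complement GC boxes (32.7% of windows held one) at -228 and -151 and a reverse-complement CCAAT box at -60. No matched motifs overlapped. GC content was 60.8% and 58.0%, against a median of 52.4% over all windows. RefSeq gives Pax6 a second start at 105682463, inside the gene, whose window held none of the 6 motifs. A match of letters is a description of the window and not a measured binding site.

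Sox1 and Sox3, both SoxB1 factors, were lower in Dax1KO ESCs in 2i/LIF by estimate, but neither passed the adjusted threshold. Sox1 (ENSMUSG00000096014.1, chr8:12395295-12400126, plus strand, 1 exon) had 264 and 197 normalized counts in 2i/LIF control, 134 and 118 in 2i/LIF Dax1KO, 407 and 249 in LIF/serum control and 161 and 220.4 in LIF/serum Dax1KO libraries. In each medium both Dax1KO libraries were below both controls, although the 2 LIF/serum control libraries were far apart. The log2 fold change was -0.87 in 2i/LIF (standard error 0.30, 95% interval -1.56 to -0.17, edgeR adjusted P = 0.181) and -0.78 in LIF/serum (standard error 0.30, 95% interval -1.47 to -0.10, edgeR adjusted P = 0.118). Sox3 (ENSMUSG00000045179.9, chrX:60891366-60893430, minus strand, 1 exon) had 264 and 251 normalized counts in 2i/LIF control libraries and 133 and 147 in 2i/LIF Dax1KO libraries. It had 117 and 170 in LIF/serum control and 153 and 124 in LIF/serum Dax1KO libraries. The 2i/LIF controls were the highest libraries, and the other 6 overlapped one another. Its log2 fold change was -0.88 in 2i/LIF (standard error 0.25, 95% interval -1.45 to -0.31, edgeR adjusted P = 0.106) and -0.05 in LIF/serum (95% interval -0.62 to 0.52, edgeR adjusted P = 0.929).

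The study also designed PCR primers for Sox1, and they are shown because they fix which stretch of a SoxB1 transcript that assay reads. They lie 133 bases apart from end to end within the single Sox1 exon, at chr8:12396581-12396604 and chr8:12396690-12396713 (GRCm38).
Sox1 forward: ccaagatgcacaactcggagatca
Sox1 reverse: taatccgggtgttccttcatgtgc
The forward primer matched annotated transcripts of Sox1, Sox2 and Sox14 exactly, and the reverse primer matched Sox1 alone. At 95% identity, no more than 1.12% of the bases of any member's longest transcript matched a transcript of another gene.

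Nes, Map2 and Tubb3 encode the cytoskeleton of neural cells, and none of them was called in the knockout by edgeR in either medium. Nes (ENSMUSG00000004891.16, chr3:87971078-87980451, plus strand) had 2717 and 2841 normalized counts in 2i/LIF control and 2616 and 2798 in 2i/LIF Dax1KO libraries. In LIF/serum it had 481 and 578 in control and 447 and 424 in Dax1KO libraries. The genotypes overlapped in 2i/LIF, and in LIF/serum both Dax1KO libraries were the lower ones. The log2 fold changes were -0.04 in 2i/LIF (95% interval -0.34 to 0.26) and -0.28 in LIF/serum (95% interval -0.59 to 0.03, edgeR adjusted P = 0.197), so a change of Nes by 2-fold lay outside both intervals.

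Tubb3 (ENSMUSG00000062380.4, chr8:123411424-123422015, plus strand) had 1975 and 1999 normalized counts in 2i/LIF control, 1435 and 1277 in 2i/LIF Dax1KO, 4432 and 5023 in LIF/serum control and 4725 and 3731 in LIF/serum Dax1KO libraries. In 2i/LIF both Dax1KO libraries lay well below the controls, while in LIF/serum the genotypes overlapped. The 2i/LIF log2 fold change was -0.55 (standard error 0.15, 95% interval -0.89 to -0.22, edgeR adjusted P = 0.0880), with a DESeq2 adjusted P of 0.0209. In LIF/serum it was -0.16 (95% interval -0.49 to 0.17, edgeR adjusted P = 0.491). Map2 (ENSMUSG00000015222.17, chr1:66175273-66442583, plus strand) had 475 and 739 normalized counts in 2i/LIF control and 646 and 777 in 2i/LIF Dax1KO libraries, 361 and 314 in LIF/serum control and 270 and 252 in LIF/serum Dax1KO libraries. The 2 control libraries in 2i/LIF differed more from each other than the genotype means did. Its log2 fold changes were 0.23 in 2i/LIF (95% interval -0.30 to 0.76, edgeR adjusted P = 0.696) and -0.37 in LIF/serum (95% interval -0.91 to 0.17, edgeR adjusted P = 0.323).

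Pax3 in all groups and Zic1 in LIF/serum were at or near the floor. Zic1 (ENSMUSG00000032368.14, chr9:91358058-91365810, minus strand), a zinc finger factor, had 38 and 32 counts in 2i/LIF control, 40 and 32 in 2i/LIF Dax1KO, 14 and 0 in LIF/serum control and 3 and 14 in LIF/serum Dax1KO libraries. The genotypes overlapped in each medium. The log2 fold change was 0.00 in 2i/LIF (95% interval -2.22 to 2.22) and 0.15 in LIF/serum (95% interval -2.59 to 2.89), in a fit with 1 estimate of the spread for all 8 libraries. The LIF/serum value rests on single libraries: it was -1.33 without the second Dax1KO library and -0.85 without the second control library, and without the first control library, which leaves a control at 0 counts, the fitted 6.07 is no measure of a fold. Its exons share 60 bases with the opposite gene Zic4, which summed to 5 counts over the 8 libraries. Pax3 (ENSMUSG00000004872.15, chr1:78101267-78197134, minus strand) had 11 and 0 counts in 2i/LIF control, 0 and 0 in 2i/LIF Dax1KO, 0 and 3 in LIF/serum control and 3 and 0 in LIF/serum Dax1KO libraries. Only 1 library was above the floor of 8 counts, and Pax3 was not tested.

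**Figure D2:**
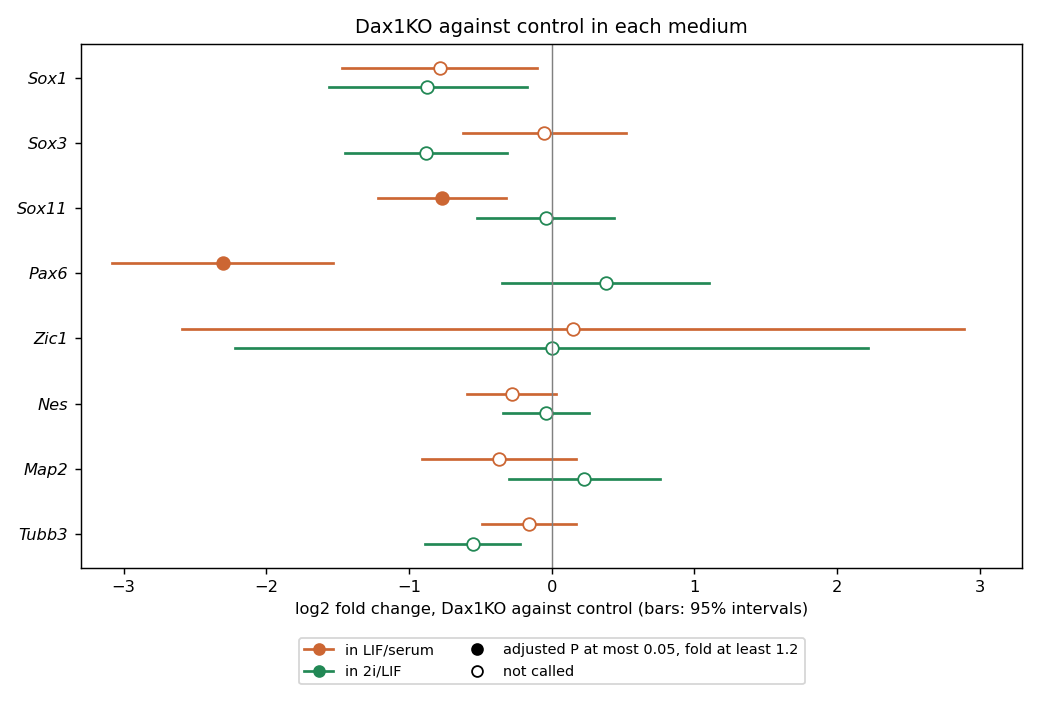
Log2 fold change of Dax1KO against control (x axis) for the 8 tested neural ectoderm genes (y axis) in LIF/serum and 2i/LIF, with 95% intervals as bars and genes that were called as filled points. The filled points are Pax6 at -2.30 and Sox11 at -0.77, both in LIF/serum, and the Zic1 intervals are the widest.

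Whether the knockout effect differed between the media was tested as the difference of the log2 fold changes, LIF/serum minus 2i/LIF. Pax6 differed, and it was the 1 gene of 8 called, where 2.87% of all genes tested were (0.824% below 0 and 2.05% above). Its difference was -2.68 on the log2 scale (standard error 0.46, 95% interval -3.74 to -1.62, edgeR adjusted P = 0.0300). It stayed between -3.01 and -2.26 when any library was left out, but the adjusted P was at most 0.05 only without the first LIF/serum control library (0.0273) and rose to 0.0574 to 0.116 without any other. For Sox11 the difference was -0.73 (95% interval -1.39 to -0.07, edgeR adjusted P = 0.217), so a fall particular to LIF/serum was not shown for it. For Sox3 it was 0.83 (95% interval 0.03 to 1.64, edgeR adjusted P = 0.246), and for Sox1 it was 0.08 (95% interval -0.89 to 1.06). Tubb3 gave 0.39 (95% interval -0.08 to 0.86), Map2 -0.60 (95% interval -1.36 to 0.15) and Nes -0.24 (95% interval -0.67 to 0.19).

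More of these genes were called between the media than between the genotypes. In control ESCs, Nes, Map2 and Sox3 were higher in 2i/LIF and Sox11 and Tubb3 were higher in LIF/serum, 5 of 8 genes, where 36.8% of all genes tested were called (20.3% higher and 16.5% lower in 2i/LIF). Nes was 5.25-fold higher in 2i/LIF (log2 fold change 2.39, standard error 0.14, edgeR adjusted P = 2.7e-05). Sox11 was 5.80-fold lower in 2i/LIF (log2 fold change -2.54, standard error 0.21, edgeR adjusted P = 0.000103) and Tubb3 2.38-fold lower (log2 fold change -1.25, standard error 0.15, edgeR adjusted P = 0.000482). The progenitor gene Nes and the neuronal genes Sox11 and Tubb3 stood on opposite sides. Map2, a neuronal gene too, was 1.80-fold higher in 2i/LIF (log2 fold change 0.85, standard error 0.23, edgeR adjusted P = 0.0228). It passed the threshold in only 13 of 17 alternatives, and without the second 2i/LIF control library its log2 fold change was 0.45. Sox3 was also 1.80-fold higher in 2i/LIF (log2 fold change 0.85, standard error 0.25, edgeR adjusted P = 0.0288), a call lost without either 2i/LIF control library or without the first LIF/serum control library (adjusted P 0.0988 to 0.119). Pax6 gave -0.86 (95% interval -1.59 to -0.14, edgeR adjusted P = 0.0639), Sox1 gave -0.51 (95% interval -1.19 to 0.17), and Zic1 gave 2.22 (95% interval -0.31 to 4.75). With 1 library left out Pax6 lay between -1.19 and -0.46, and it passed the threshold in 4 of 17 alternatives, among them the fit without the first LIF/serum control library (adjusted P = 0.0251). Sox1 lay between -0.85 and -0.11. Zic1 was at its lowest at 1.21, and without the first LIF/serum control library it was called (adjusted P = 0.0155) against the remaining control at 0 counts, where the fitted 8.15 is again no measure of a fold. The libraries of the media did not overlap in 7 of 8 genes (68.6% of all genes tested), with 2i/LIF higher in 4 (35.4%) and lower in 3 (33.2%).

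In Dax1KO ESCs, 5 of 8 genes were again called between the media, where 28.9% of all genes tested were (15.2% higher and 13.7% lower in 2i/LIF). Nes (6.22-fold), Pax6 (3.52-fold) and Map2 (2.73-fold) were higher in 2i/LIF, and Sox11 (3.50-fold) and Tubb3 (3.12-fold) were higher in LIF/serum. The log2 fold changes were 2.64 for Nes, 1.82 for Pax6, 1.45 for Map2, -1.81 for Sox11 and -1.64 for Tubb3, with edgeR adjusted P values from 2.4e-05 to 0.00541. These 5 calls held without any 1 library. The libraries did not overlap in 7 of 8 genes (68.9% of all genes tested), with 2i/LIF higher in 4 (35.6%) and lower in 3 (33.3%). Pax6 thus stood higher in LIF/serum by estimate in control ESCs and higher in 2i/LIF in Dax1KO ESCs, and the difference between these values is the same contrast as its difference of knockout effects. Sox3, which was higher in 2i/LIF in control ESCs, had a log2 fold change of 0.02 in Dax1KO ESCs (95% interval -0.56 to 0.59). The comparisons between media and those between genotypes share libraries and are not independent of one another.

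**Figure D3:**
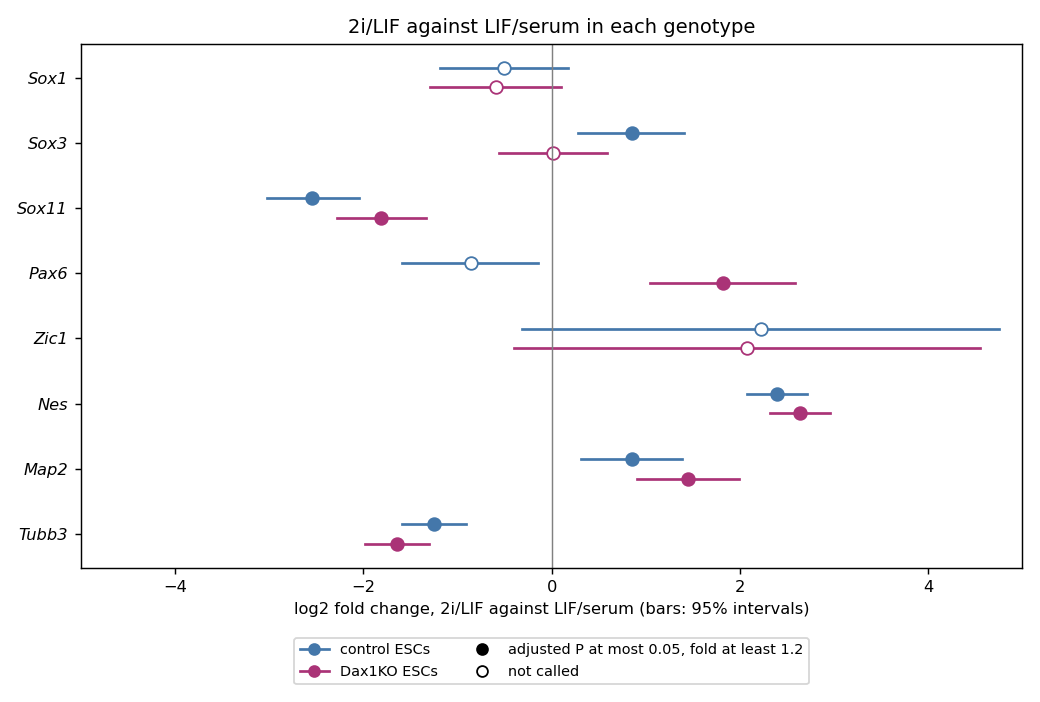
Log2 fold change of 2i/LIF against LIF/serum (x axis) for the 8 tested neural ectoderm genes (y axis) in control and Dax1KO ESCs, with 95% intervals as bars and genes that were called as filled points. Nes is the highest filled point in each genotype (2.39 and 2.64), Sox11 the lowest (-2.54 and -1.81), and Pax6 is at -0.86 in control and 1.82 in Dax1KO ESCs.

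Levels of different genes were compared per kilobase of merged exons. Tubb3 was the most abundant of the 9 in every group, with 1064 ± 8.79 normalized counts per kilobase in 2i/LIF control, 726 ± 59.5 in 2i/LIF Dax1KO, 2531 ± 224 in LIF/serum control and 2263 ± 376 in LIF/serum Dax1KO ESCs (SD, n = 2 each). Nes came second, at 433 ± 13.6, 422 ± 20.0, 82.6 ± 10.7 and 67.9 ± 2.49 normalized counts per kilobase in the same order. In 2i/LIF control ESCs, Sox3 (125 ± 4.33), Sox1 (47.7 ± 9.75), Map2 (36.9 ± 11.3), Sox11 (13.4 ± 2.07), Pax6 (9.08 ± 0.984), Zic1 (6.16 ± 0.757) and Pax3 (0.891 ± 1.26) followed per kilobase, and among neighbours only Sox1 and Map2 overlapped. In 2i/LIF Dax1KO ESCs Sox3 (67.8 ± 4.57), Map2 (43.3 ± 5.64), Sox1 (26.1 ± 2.34), Sox11 (13.0 ± 2.28), Pax6 (11.8 ± 1.08) and Zic1 (6.16 ± 0.948) followed per kilobase, Pax3 was at 0, and only Sox11 and Pax6 overlapped. In LIF/serum control ESCs the libraries of Nes, Sox11 (77.7 ± 4.50), Sox3 (69.3 ± 18.1) and Sox1 (67.8 ± 23.2) overlapped from each gene to the next, above Map2 (20.5 ± 2.06) and Pax6 (16.5 ± 6.05), which overlapped each other. In LIF/serum Dax1KO ESCs Nes and Sox3 (67.0 ± 10.0) overlapped, as did Sox11 (45.5 ± 0.371) and Sox1 (39.4 ± 8.73), and Map2 (15.8 ± 0.783) and Pax6 (3.34 ± 0.831) stood apart per kilobase. Zic1 and Pax3 were at most 1.45 per kilobase in LIF/serum on average. The per-kilobase values of Pax6 and Map2 depend most on the transcript assumed, since their merged exons (11694 and 16449 bases) are longer than their longest transcripts (4427 and 6258 bases). With the longest transcript as length the order turned in places: in 2i/LIF Dax1KO ESCs Map2 (114 per kilobase) stood above Sox3 and Pax6 (31.2 per kilobase) above Sox1 and Sox11, in 2i/LIF control ESCs Map2 (97.0) stood above Sox1 and Pax6 (24.0) above Sox11, and in LIF/serum Dax1KO ESCs Map2 (41.7) stood above Sox1. For scale, Sox2, which ESCs use for pluripotency, stood at 8987 ± 1022 normalized counts per kilobase in 2i/LIF control and 10410 ± 726 in LIF/serum control ESCs.

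Across the 8 libraries, log2 levels of Sox11 and Tubb3 rose and fell together (Pearson r = 0.947), as did those of Nes and Map2 (r = 0.931), and Nes ran opposite to Sox11 (r = -0.942) and to Tubb3 (r = -0.935). Pax6 had r between -0.206 and 0.441 with every other tested member. These values describe 4 groups of 2 libraries, in which the medium separates the points, and carry no test. Among 13300 genes with a mean of at least 100 normalized counts, the patterns most like that of Pax6 were those of Trim2 (r = 0.966), Nol7 (r = 0.961) and Dcaf13 (r = 0.951). Those most like Sox11 were Hirip3 (r = 0.999), Trip6 (r = 0.999) and Yipf5 (r = 0.997). Trim2 had means of 1247 normalized counts in 2i/LIF control, 1281 in 2i/LIF Dax1KO, 2246 in LIF/serum control and 476 in LIF/serum Dax1KO ESCs.

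A wider list of 123 genes of neural development, in 9 groups, was read beside the 9 genes, and 108 of them could be tested. In LIF/serum 7 were higher and 19 lower in Dax1KO ESCs, 24.1% of those tested beside 14.7% of all genes. These 26 calls fell to 16 without the first LIF/serum control library and to 15 and 7 without the first and the second LIF/serum Dax1KO library. In 2i/LIF 2 were higher and 6 lower, 7.41% beside 3.16%. These 8 calls fell to 0 without either 2i/LIF Dax1KO library, to 2 without either 2i/LIF control library and to 5 without either LIF/serum Dax1KO library. Their median log2 fold changes were -0.15 and -0.20. The list medians ran from -0.88 (SoxB1, SoxC and Zic relatives) to 0.83 (Pax relatives) in LIF/serum and from -0.78 (neuronal RNA-binding and synaptic genes) to 0.02 in 2i/LIF. The Pax median in LIF/serum lay between Pax2 (0.75) and Pax7 (0.92). Neither was called, and their LIF/serum group means were at most 26.2 normalized counts. In control ESCs 35 were higher and 35 lower in 2i/LIF than in LIF/serum (64.8% of those tested beside 36.8% of all genes), and in Dax1KO ESCs 31 were higher and 35 lower (61.1% beside 28.9%). The counts of the single lists that follow are small, and each stands beside the same shares of all genes called in the knockout, 14.7% in LIF/serum and 3.16% in 2i/LIF.

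The Zic1 relatives Zic2 and Zic5 fell in LIF/serum, and none of the 4 tested relatives of the Sox members was called there: Sox2 had a log2 fold change of -0.34 (edgeR adjusted P = 0.0882), Sox4 of -0.88 (edgeR adjusted P = 0.0552), Sox12 of -0.88 (edgeR adjusted P = 0.630) and Sox21 of -1.36 (edgeR adjusted P = 0.0637). Zic2 and Zic5, neighbours on chromosome 14 and zinc finger factors like Zic1, fell in LIF/serum from means of 1174 ± 203 to 247 ± 19.2 and from 1240.5 ± 64.9 to 395.5 ± 8.75 normalized counts (SD, n = 2). Their log2 fold changes were -2.25 (edgeR adjusted P = 0.00210) and -1.65 (edgeR adjusted P = 0.00147). Both were well above the level of Zic1 per kilobase. They were 2 of 7 tested SoxB1, SoxC and Zic relatives called in LIF/serum. Among the 6 tested Pax relatives, Pax8 rose in 2i/LIF (log2 fold change 1.64, edgeR adjusted P = 0.00652) and fell in LIF/serum (log2 fold change -0.65, edgeR adjusted P = 0.0415). Pax5 rose in LIF/serum (log2 fold change 1.35, edgeR adjusted P = 0.0365).

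Of 18 tested neural plate and regional transcription factors, 2 changed in LIF/serum and 0 in 2i/LIF, near the shares of all genes. En1, a factor of the midbrain and hindbrain boundary, fell in LIF/serum from 79.2 ± 4.91 to 14.01 ± 0.872 normalized counts (log2 fold change -2.49, edgeR adjusted P = 0.00718), and Gbx2, which also acts in naive ESCs, fell by 1.06 on the log2 scale (edgeR adjusted P = 0.0285). Of 13 tested progenitor and Notch target genes, 3 fell in LIF/serum and 0 changed in 2i/LIF. They were the neural cadherin Cdh2 (-1.58), the filament gene Vim (-0.84) and Cd24a (-0.51). None of 9 tested proneural factors, the basic helix-loop-helix genes that start neuronal differentiation and their partners, was called in either medium, where 14.7% and 3.16% of all genes were, a count near that background for so few genes.

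The neuronal cytoskeleton and neurite genes, the company of Tubb3 and Map2, split in LIF/serum into 7 that fell and 2 that rose of 19 tested. Ina, a neuronal intermediate filament gene, fell from 4214 ± 115 to 931 ± 134 normalized counts (log2 fold change -2.18, edgeR adjusted P = 0.00109), and Stmn3, a regulator of microtubules, fell by 1.57 on the log2 scale. Mapt, which encodes tau, rose from 515 ± 262 to 1883 ± 82.1 normalized counts (log2 fold change 1.87, edgeR adjusted P = 0.00836). In 2i/LIF 3 fell and 1 rose, and Nefh (-1.30), Crmp1 (-0.97) and Dpysl3 (-0.90) fell. Of 11 neuronal RNA-binding and synaptic genes tested, Nova1 fell in LIF/serum (log2 fold change -1.28) and Elavl3 in 2i/LIF (log2 fold change -1.28, edgeR adjusted P = 0.0491).

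Of 11 tested neural crest genes, 2 rose and 2 fell in LIF/serum, among them Tfap2a (log2 fold change 1.55), the receptor gene Ngfr (-0.76) and Zic5, which is on both lists. Foxd3, a factor of ESCs as well as of the crest, fell in 2i/LIF (log2 fold change -1.64, edgeR adjusted P = 0.0267) and was the 1 crest gene called there. Of 15 tested genes for signals and inhibitors of neural induction, 2 rose and 2 fell in LIF/serum and 0 changed in 2i/LIF. Lefty1, a Nodal antagonist, fell from 3880 ± 502 to 831 ± 104 normalized counts (log2 fold change -2.22, edgeR adjusted P = 0.00587). Bmp7, a BMP ligand, rose by a log2 fold change of 1.89, and the Wnt antagonist Dkk1 by 1.22.

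**Figure D4:**
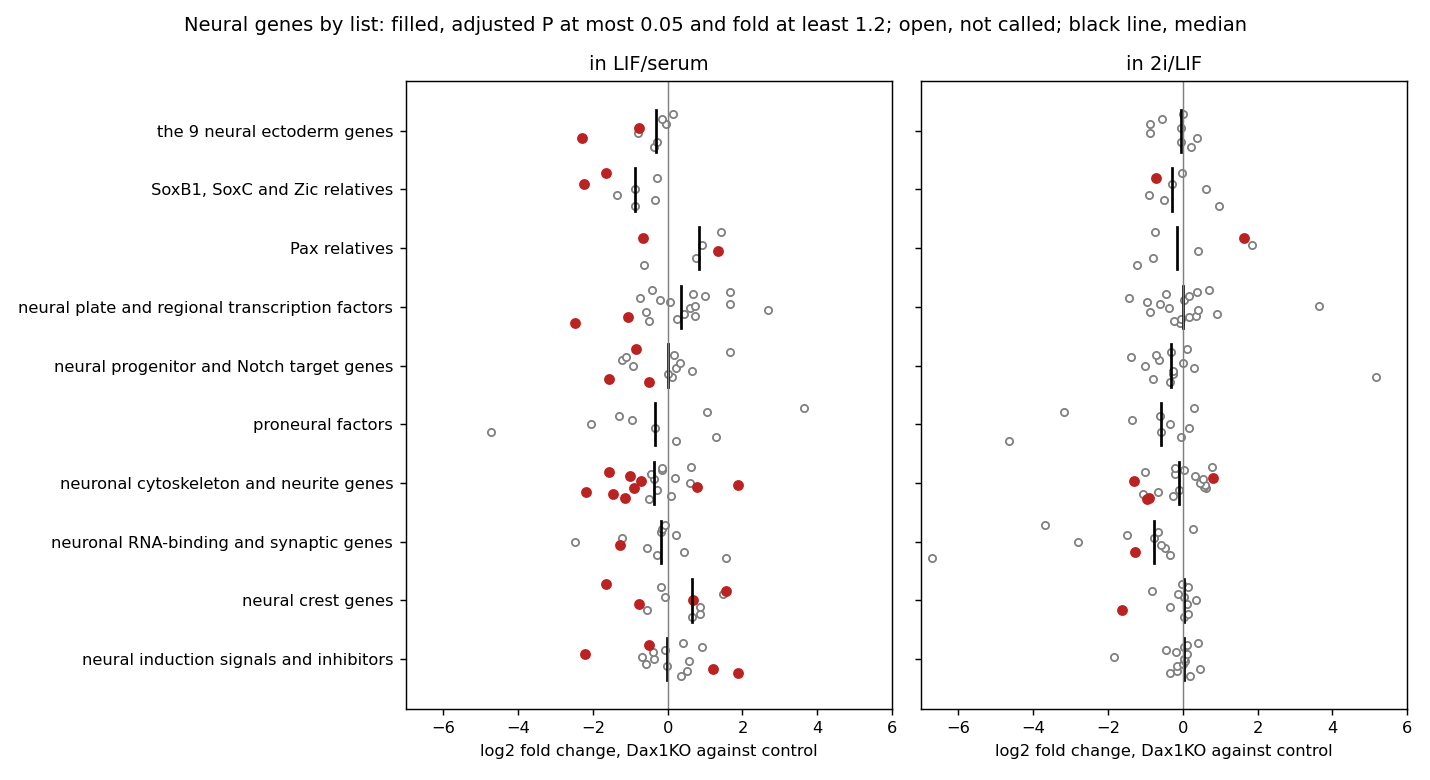
Log2 fold change of Dax1KO against control (x axis) for each tested gene (points) of the 9 neural ectoderm genes and 9 related lists (y axis), in LIF/serum (left) and 2i/LIF (right), with called genes filled and list medians as black lines. In LIF/serum 19 related genes fell and 7 rose, and in 2i/LIF 6 fell and 2 rose, with Zic5 drawn in both of its lists.

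Markers of other lineages moved in the same libraries in which Pax6 and Sox11 fell. Over all genes tested, 8.87% were called higher and 5.78% lower in Dax1KO ESCs in LIF/serum, and 1.51% and 1.65% in 2i/LIF. In LIF/serum 5 of 8 primitive endoderm markers rose, among them Dab2 (log2 fold change 1.63), Sox17 (1.62) and Gata4 (1.44). Their summed level was 9346 to 12709 normalized counts in LIF/serum control, 20157 to 24045 in LIF/serum Dax1KO, 2771 to 2823 in 2i/LIF control and 2098 to 2652 in 2i/LIF Dax1KO libraries. Of 8 mesoderm markers 2 rose in LIF/serum, Hand1 (2.08), which is also on the trophectoderm list, and Eomes (1.05). The others were not called, with T (-0.47), Mixl1 (-0.39) and Tbx6 (-0.19) below 0 and Kdr (0.30), Mesp1 (1.49) and Foxf1 (0.48) above 0. The list summed to 513 to 515 normalized counts in LIF/serum control, 1077 to 1165 in LIF/serum Dax1KO, 1078 to 1093 in 2i/LIF control and 1292 to 1297 in 2i/LIF Dax1KO libraries. Most of each sum came from Eomes and Hand1, with means of 624 and 371 in LIF/serum Dax1KO ESCs. Of 8 trophectoderm markers 2 rose (Hand1 and Krt18) and 1 fell (Tfap2c), with sums of 3885 to 3901 in LIF/serum control, 4559 to 5175 in LIF/serum Dax1KO, 3904 to 4237 in 2i/LIF control and 5485 to 5574 in 2i/LIF Dax1KO libraries. Of 5 tested surface ectoderm markers Grhl3 rose in LIF/serum (0.70), and the list summed to 1970 to 2309 in LIF/serum control, 2826 to 2924 in LIF/serum Dax1KO, 2312 to 2379 in 2i/LIF control and 2906 to 4055 in 2i/LIF Dax1KO libraries. Of 6 tested fibroblast markers 3 rose in LIF/serum, Col1a1 (2.13), Pdgfrb (1.79) and Thy1 (1.63), with sums of 579.8 to 633 in LIF/serum control, 1872 to 1988 in LIF/serum Dax1KO, 2019.5 to 2467 in 2i/LIF control and 1724 to 1765 in 2i/LIF Dax1KO libraries. Most of each sum came from Thy1, with means of 411, 1269, 1957 and 1089 in the same order. Lum and Postn had 0 counts in every LIF/serum library, Col1a2 (0.94) was not called, and the untested Col3a1 and Dcn had at most 4 counts in any library. Of the 8 ESC markers Klf4 rose in LIF/serum (0.79). No marker of these lists was at 0 in all 8 libraries, and their part in the values of Pax6 and Sox11 was not tested. In 2i/LIF the called markers were Dab2, Krt8, Krt18 and Pdgfrb, which rose, and Thy1, which fell.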

How the data were processed

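Messenger RNA of 8 libraries was sequenced on an Illumina instrument. The authors deposited a whole-number count for each gene of a library, with no normalization stated. Whether these counts were rescaled was not tested beyond the steps of the low values. The submitters' processing notes name HISAT2 2.0.4, the mm10 build and DESeq2, while the counting tool and annotation are not given in the sources used here, nor is the use of strand. Symbols, positions and exon lengths came from GENCODE M21 (GRCm38), which held 52403 of the 52550 identifiers.

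Testing used edgeR 4.0.16 (R 4.3.3) on the 20749 genes that passed filterByExpr, with TMM scaling and 1 quasi-likelihood fit of 4 group means to all 8 libraries, since each group has only 2. P values were two-sided and adjusted by the Benjamini-Hochberg method. Calls required an adjusted P up to 0.05 and a 1.2-fold change, or the adjusted P alone for differences between media. The floor of 8 counts is 3 steps of the low values. It replaces a floor of 3 counts chosen earlier and covers counting error only.

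The 9 members and all lists were chosen with earlier results of these data known. Besides the members, the text names, per list and knockout contrast, called genes with the 3 largest absolute log2 fold changes, libraries that did not overlap and 10 counts or more in each library of the higher group, and for each member called in the knockout the 3 genes of most similar pattern. Of the genes that this rule picks, 1 is not reported here. Correlations used log2 values with a prior count of 2. Transcripts were compared with blastn 2.17.0.

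The fit was tested on simulated data for 20749 genes. For LIF/serum it called 19% of genes planted at a log2 change of 1 and 57% of those at 2, and for 2i/LIF 25% and 62%, with 7 false calls among 83 and 10 among 97. Each contrast had 100 genes changed at each size, on a common mean per gene over all groups. The data held more called genes (3041 in LIF/serum and 656 in 2i/LIF), which loosens the adjusted threshold. These shares are therefore no measure of the genes missed in these data or of a difference between the media. The alternatives were DESeq2 1.42.0, RLE scaling, other filters, separate fits, a replicate block, no chromosome 6 genes, counts divided by 3 or by the step of low values, the unadjusted P, a fold of 2 and each library left out. Libraries of a group differed by more than sampling noise.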

Additional observations from a re-analysis of the deposited data

Results flagged for a closer look

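The knockout effect of the genes below differed between the media by the test of the difference itself (edgeR, log2 fold change in LIF/serum minus that in 2i/LIF, adjusted over all genes tested). Of the 9 neural ectoderm genes it was Pax6, with a difference of -2.68 (adjusted P = 0.0300). Among related genes the zinc finger factors Zic2 (-1.96, adjusted P = 0.0258) and Zic5 (-1.62, adjusted P = 0.0136), the paired factor Pax8 (-2.29, adjusted P = 0.00820), the filament gene Ina (-1.52, adjusted P = 0.0258) and the Nodal antagonist Lefty1 (-2.32, adjusted P = 0.0422) lay below 0. The crest factor Tfap2a (2.37, adjusted P = 0.0166) and the ligand Bmp7 (2.24, adjusted P = 0.0353) lay above 0. With Stmn1 and Map1b, which the naming rule did not pick, these were the 9 related genes called by this test. They were 8.33% of the 108 related genes tested, beside 2.87% of all genes tested. Below 0 lay 7 of them, beside 0.824% of all genes tested, and above 0 lay 2, beside 2.05%. Of the named markers of other lineages, Gata4 (1.60, adjusted P = 0.0161), Hand1 (2.77, adjusted P = 0.0258) and Thy1 (2.47, adjusted P = 0.00364) lay above 0.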

How the results depend on the processing

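Of 667 alternative estimates for single members, 637 stayed on their side of the threshold, 24 lost the call and 6 gained it. The sign was opposite in 17 of them, all of genes not called, and 0 called values turned. In LIF/serum 1 member was called with no filter on low counts (Sox11 was lost, adjusted P = 0.0672) and 1 at a fold of at least 2, and 0 to 2 were called when 1 library was left out. The related genes called there numbered 47 at an unadjusted P under 0.05, 16 at a fold of at least 2 and 7 to 24 with a library left out. In 2i/LIF DESeq2 called 1 member and the unadjusted P 3. The related genes called there numbered 15 with DESeq2, 2 with no filter, 5 in the separate fit, 35 at the unadjusted P, 4 at a fold of at least 2 and 0 to 8 with a library left out. The difference between media was called for 0 members with no filter, 3 at the unadjusted P and 0 to 1 with a library left out. Between media in control ESCs 3 members were called in the separate fit, 3 at a fold of at least 2 and 3 to 5 with a library left out. The cause of these shifts was not tested. The median level per kilobase became 47.7 in 2i/LIF control and 31.2 in 2i/LIF Dax1KO ESCs with the longest transcript as length. Same-numbered libraries shared only a number, with correlations of their deviations between -0.0150 and 0.108, and in the fit with the replicate block the members called were 2 in LIF/serum, 0 in 2i/LIF, 1 for the difference and 5 and 5 between media. Without the chromosome 6 genes, and with counts divided by 3 or by the step of low values (the latter chosen after seeing the data), the numbers of members called in LIF/serum stayed at 2. A library left alone in its group is assumed to vary like the others. In simulated data with 2 libraries a group and fewer changed genes than calls in these data, changes near a log2 of 1 were mostly missed.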
